A study of Homo sapiens with 2 samples.

Results

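The genes described here are the expressed members of the ZNF family, the zinc finger genes named by ZNF and a number. A gene was a member when the platform annotation gave its probe set a symbol made of ZNF, digits and at most 1 further letter, and when the higher of its values on the control and miR-95 arrays was at least 7.5 on the log2 scale. Of 13864 named genes in the series, 470 carried such a symbol and 286 of these reached the threshold. Among the 286, 136 lie on chromosome 19 and 150 on 20 other chromosomes. The members were thus chosen by their values on the 2 arrays that are compared, so the levels of the members are a description and carry no test.

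The cells were PC3, a line from human prostate cancer that grows without androgen. The control group stably overexpressed a control miR (microRNA), the comparison group stably overexpressed miR-95, and both were grown in the same serum-containing medium. Whether either line was 1 clone is not stated in the labels. Each group holds 1 array, so differences have neither a replicate error nor a test, and precision is limited by the number of arrays. Of 5 epithelial markers 4 were measured, and all 4 (KRT8, KRT18, KRT19 and EPCAM) reached 7.5. The 3 measured of 6 androgen-responsive luminal prostate markers (KLK3, KLK2 and FOLH1) stayed below it. The single measured leukocyte and endothelial markers and both measured fibroblast markers also stayed below it. Of the 2 fibroblast markers, LUM read 7.33 on the control array and 6.04 on the miR-95 array, and DCN read 2.9 and 2.76. The part of the shift in LUM in the ZNF values was not tested.

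A C2H2 zinc finger is a short fold held by a zinc ion between cysteines and histidines, and a row of such fingers reads a DNA sequence. Many ZNF proteins also carry a KRAB domain, which recruits the scaffold TRIM28 and the histone methyltransferase SETDB1 to silence the bound DNA, including transposable elements. KRAB genes multiplied by tandem duplication, and many stand in clusters of neighbours on chromosome 19. Other ZNF proteins have no KRAB domain and act as activators, as chromatin cofactors or on RNA and ribosomes.

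The labels separate the arrays by miR-95, whose mature sequences in RefSeq (GRCh38.p14, minus strand) are shown because the comparison rests on them. With 1 array per group, miR-95 cannot be told apart from other differences between the lines, cultures or arrays. The labels do not say which arm was meant, and no probe set used here named the microRNA itself. Capitals mark the seed, bases 2 to 8, by which a microRNA pairs with messenger RNAs. The 3p arm comes from chr4:8005312-8005333 and the 5p arm from chr4:8005347-8005367.
hsa-miR-95-3p: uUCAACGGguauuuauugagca
hsa-miR-95-5p: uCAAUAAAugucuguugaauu
The arms do not share a seed. Transcript sequences of the ZNF genes were not used here, so seed matches in them were not counted.

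The promoters of the ZNF genes were set beside their values because position and sequence were not used to choose the members. RefSeq promoter windows of 300 bases (250 before to 50 after the gene start, GRCh38.p14) were matched to 249 of the 286 members, 125 of them on chromosome 19. The following lines give the 150 bases before the start of the members with the lowest and highest differences, 5′ to 3′ on the strand of the gene, so that the sequence beside each extreme value can be read. Capitals mark matches, on either strand, to the letters CCGGAAG (bound by ETS factors) or CCAAT (bound by NF-Y). The windows are chr19:52028380-52028529 (minus strand) for ZNF614, chr4:337664-337813 (plus) for ZNF141, chr19:57279832-57279981 (plus) for ZNF460, chr19:9309839-9309988 (minus) for ZNF699, chr19:12610770-12610919 (plus) for ZNF791, chr9:96418371-96418520 (minus) for ZNF367 and chr16:3134879-3135028 (plus) for ZNF213.
ZNF614: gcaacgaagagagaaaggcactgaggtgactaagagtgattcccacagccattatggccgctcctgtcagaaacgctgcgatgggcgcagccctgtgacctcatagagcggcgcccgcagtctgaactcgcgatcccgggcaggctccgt
ZNF141: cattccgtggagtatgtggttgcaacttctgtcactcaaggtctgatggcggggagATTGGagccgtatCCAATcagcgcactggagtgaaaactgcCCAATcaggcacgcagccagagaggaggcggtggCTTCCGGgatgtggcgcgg
ZNF460: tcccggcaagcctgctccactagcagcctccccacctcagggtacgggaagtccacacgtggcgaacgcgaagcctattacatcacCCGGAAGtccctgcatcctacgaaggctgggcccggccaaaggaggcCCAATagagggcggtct
ZNF699: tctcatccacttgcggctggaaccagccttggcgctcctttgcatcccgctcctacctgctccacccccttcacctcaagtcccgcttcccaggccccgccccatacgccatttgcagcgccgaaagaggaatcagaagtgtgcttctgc
ZNF791: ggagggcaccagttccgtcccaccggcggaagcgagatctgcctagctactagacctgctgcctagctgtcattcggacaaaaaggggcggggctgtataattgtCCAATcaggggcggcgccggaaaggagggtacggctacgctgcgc
ZNF367: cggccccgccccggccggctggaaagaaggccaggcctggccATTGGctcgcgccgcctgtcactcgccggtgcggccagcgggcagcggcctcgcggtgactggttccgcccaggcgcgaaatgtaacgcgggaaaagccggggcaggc
ZNF213: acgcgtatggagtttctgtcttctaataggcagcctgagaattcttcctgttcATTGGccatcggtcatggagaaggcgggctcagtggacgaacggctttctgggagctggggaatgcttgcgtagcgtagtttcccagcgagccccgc
In these 150 bases ZNF141 held 3 CCAAT matches and 1 ETS match, the latter on the minus strand beginning 19 bases before the start. ZNF460 held 1 ETS match, 64 bases before the start, and 1 CCAAT match at 17 bases. ZNF791, ZNF367 and ZNF213 each held 1 CCAAT match and no ETS match, and ZNF614 and ZNF699 held neither. In the full windows of 300 bases, which the shares that follow use, ZNF213 also held the ETS letters. No match was common to the 4 lower genes, and CCAAT was common to the 3 higher ones. ZNF703, next on the higher side at 0.355, had no matched window, so the sets are of unequal size. CCAAT was found in 47.4% of the member windows of full length, so a match is frequent among the members.

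ETS letters were more frequent in the expressed ZNF members than in the other sets. The promoters of ZNF genes below the threshold were not summarised. The match CCGGAAG was present in 61 of 125 chromosome 19 members (48.8%), in 47 of 124 members on other chromosomes (37.9%), in 20.4% of 5571 other genes at or above 7.5 and in 10.7% of all 27305 windows in the table. CCAAT was present in 53.6% of the chromosome 19 members, 41.1% of the members elsewhere, 37.2% of the other genes and 35.7% of all windows. The remaining letters searched were rarer in the members. GGCGGGAA (E2F) was in 4.02% of the members, 5.56% of the other genes at or above 7.5 and 3.18% of all windows. In the same order, AAGATGGC (YY1) was in 5.62%, 6.26% and 3.03%, and GCGCATGC (NRF1) in 6.43%, 6.26% and 3.27%. TATAAA was in 2.41%, 4.77% and 12%. The median GC content of the windows was 61.0% on chromosome 19 and 63.8% for members elsewhere, against 66.0% for the other genes at or above 7.5. None of the 6 is contained in another, but CCGGAAG and AAGATGGC share end letters and can overlap. A match is a description of the sequence and not evidence of binding.

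**Figure D1:**
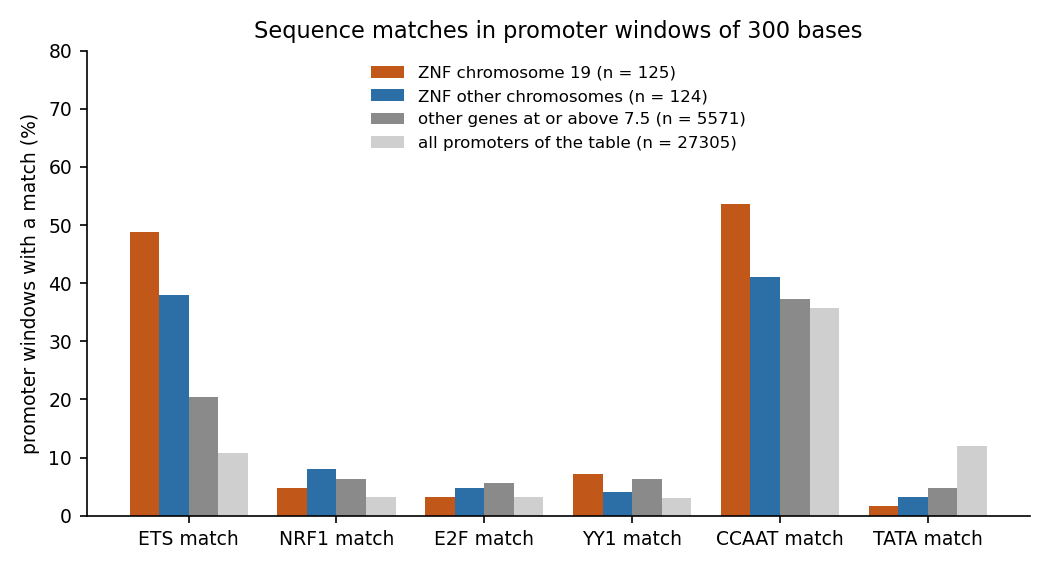
Share of RefSeq promoter windows (y axis, percent) that hold each of the 6 sequences on either strand (x axis), for ZNF members on chromosome 19, ZNF members elsewhere, other genes at or above 7.5 and all windows of the table. The ETS bar of the chromosome 19 members stands at 48.8% and that of all windows at 10.7%.

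The differences between the arrays were then set beside the matches. The 108 members with the ETS letters and the 141 without had the same median difference, -0.015 on the log2 scale, and 56.5% and 54.6% of them were negative. With CCAAT the median was -0.045 and 61.0% were negative (118 members), and without it -0.005 and 50.4% (131 members). With 1 array per group these gaps were not tested. Of the 10 members with GGCGGGAA, 9 were lower on the miR-95 array, with a median of -0.095 and a range from -0.275 (ZNF644) to 0.055 (ZNF101). Without centring 8 of the 10 were negative, against 46.2% of all members. Among the 239 members without these letters, 129 were negative after centring, and over all genes at or above 7.5 the share was 59.2%. With AAGATGGC 9 of 14 were negative (median -0.06), with GCGCATGC 9 of 16 (-0.015) and with TATAAA 3 of 6 (-0.015).

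A difference is the log2 value on the miR-95 array minus that on the control array, after each array was centred on its median over all named genes (7.46 for control and 7.495 for miR-95), which lowers the miR-95 side by 0.035. Values of single arrays are given as deposited. The difference in level between genes of different probe sets also holds probe effects. Levels of different genes were therefore used only to place them at the threshold, rank the brightest members and form classes by mean value. The ZNF members as a whole lay close to equal on both arrays. Their median difference was -0.02, with quartiles of -0.105 and 0.055, and 162 were negative and 124 positive. The negative share of 56.6% is near the 59.2% of all 7047 named genes at or above 7.5, whose median was -0.035. The signs rest on the centring: with values as deposited the median of the members was 0.015 and 46.2% were negative, beside 47.9% of all genes at or above 7.5, and loess and quantile normalization also gave medians above 0 (0.0064 and 0.01). In RNA from whole cultures, fewer cells that express a gene and less RNA per cell cannot be told apart. Of the members 52.8% lay within 0.1 of 0, against 47.7% of all genes at or above 7.5.

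Large differences were rare. With miR-95, 1 member (ZNF614) was lower by 1.5-fold or more and 0 were higher by as much, where the background was 0.866% and 0.397% of all 7047 genes. At a smaller limit, a log2 difference of 0.322, 10 members were lower (3.5%, background 5.36%) and 8 higher (2.8%, background 3.09%). The robust SD of the differences was 0.126 in the members and 0.148 in all genes at or above 7.5. Neither share of members past the smaller limit exceeded the background.

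**Figure D2:**
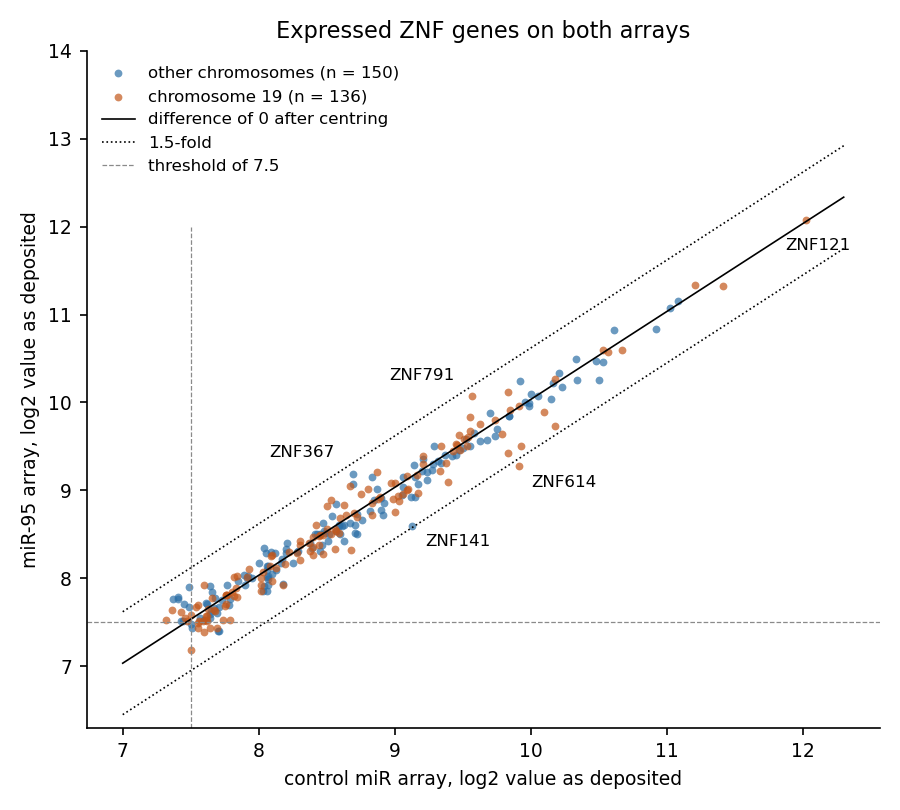
Value of each of the 286 expressed ZNF genes on the control array (x axis) and the miR-95 array (y axis), both log2 as deposited, with chromosome 19 members in orange and other members in blue. The solid line is a difference of 0 after centring, the dotted lines are 1.5-fold and the dashed lines the threshold of 7.5; only ZNF614 lies beyond a dotted line.

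A guide to how far probe sets disagree on a difference comes from genes read by more than 1 probe set. For each of 68 genes at or above 7.5 with several probe sets, the 2 differences furthest apart were taken. They gave a spread of 0.151 (their gap over the square root of 2, root mean square over genes). This spread also holds probe effects and dim probe sets. It holds no variation between cultures. Among the members, 5 had 2 probe sets. ZNF224, a KRAB repressor, read 7.34 and 7.32 (control, then miR-95) by the first and 8.51 and 8.89 by the other, with differences of -0.055 and 0.345, so its probe sets disagreed in sign. ZNF770 also disagreed, at 0.075 by a dim probe set (4.59 and 4.70) and -0.225 by a bright one (11.67 and 11.48). ZNF451, ZNF322 and ZNF384 had both differences below 0. ZNF genes share finger sequence with their paralogs, and signal shared between their probe sets was not tested.

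Among the lower members, ZNF614, a C2H2 gene of a chromosome 19 cluster, read 9.91 on the control array and 9.28 on the miR-95 array. Its difference of -0.665, or 1.59-fold, placed it 30th from the lowest of the 7047 genes. ZNF141 on chromosome 4, a KRAB zinc finger gene, read 9.13 and 8.60, a difference of -0.565.

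The next 4 lower members all lay on chromosome 19 and are KRAB zinc finger genes. ZNF460 read 10.18 on the control array and 9.73 on the miR-95 array (1.40-fold lower). ZNF699 read 9.93 and 9.50 (1.38-fold lower). ZNF264 read 9.83 and 9.42 (1.36-fold lower). In all 3 of them both arrays stood well above the threshold, so none depended on it to be counted. ZNF256 read 8.68 and 8.32 (1.31-fold lower, a difference of -0.395). ZNF850, also on chromosome 19, read 9.39 and 9.10 (-0.325).

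A further 3 members at the smaller limit were dim. ZNF267 on chromosome 16 read 7.71 on the control array and 7.40 on the miR-95 array. ZNF93, a KRAB repressor of LINE-1 elements, read 7.5 and 7.19. ZNF619 on chromosome 3 read 7.70 and 7.40. All 3 were below 7.5 on the miR-95 array and were kept only through the control array, which fixed the direction in which they could stand out. Such members were few: 263 reached 7.5 on both arrays, 10 on the control array alone and 13 on the miR-95 array alone.

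Among the higher members, ZNF791 on chromosome 19, a KRAB zinc finger gene, read 9.57 on the control array and 10.07 on the miR-95 array. ZNF367 on chromosome 9, a zinc finger gene without a KRAB domain, read 8.69 and 9.19. Both had a difference of 0.465, or 1.38-fold. ZNF213, which carries SCAN and KRAB domains, read 7.49 and 7.90, and ZNF703, a transcriptional corepressor amplified in luminal breast cancers, read 7.37 and 7.76. ZNF213, ZNF703 and ZNF32 (7.41 and 7.79) were below 7.5 on the control array.

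The other members past the smaller limit on the higher side were clear of the threshold. ZNF558 read 8.67 on the control array and 9.05 on the miR-95 array. The transcribed pseudogene ZNF271P, 1 of 2 pseudogenes among the members, read 8.69 and 9.07. ZNF780B read 8.53 and 8.89, just past the limit at a difference of 0.325. Below the limit followed ZNF319 (0.315), ZNF844 (0.305) and, each at 0.285, ZNF217, ZNF512B, ZNF585A and ZNF653.

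**Figure D3:**
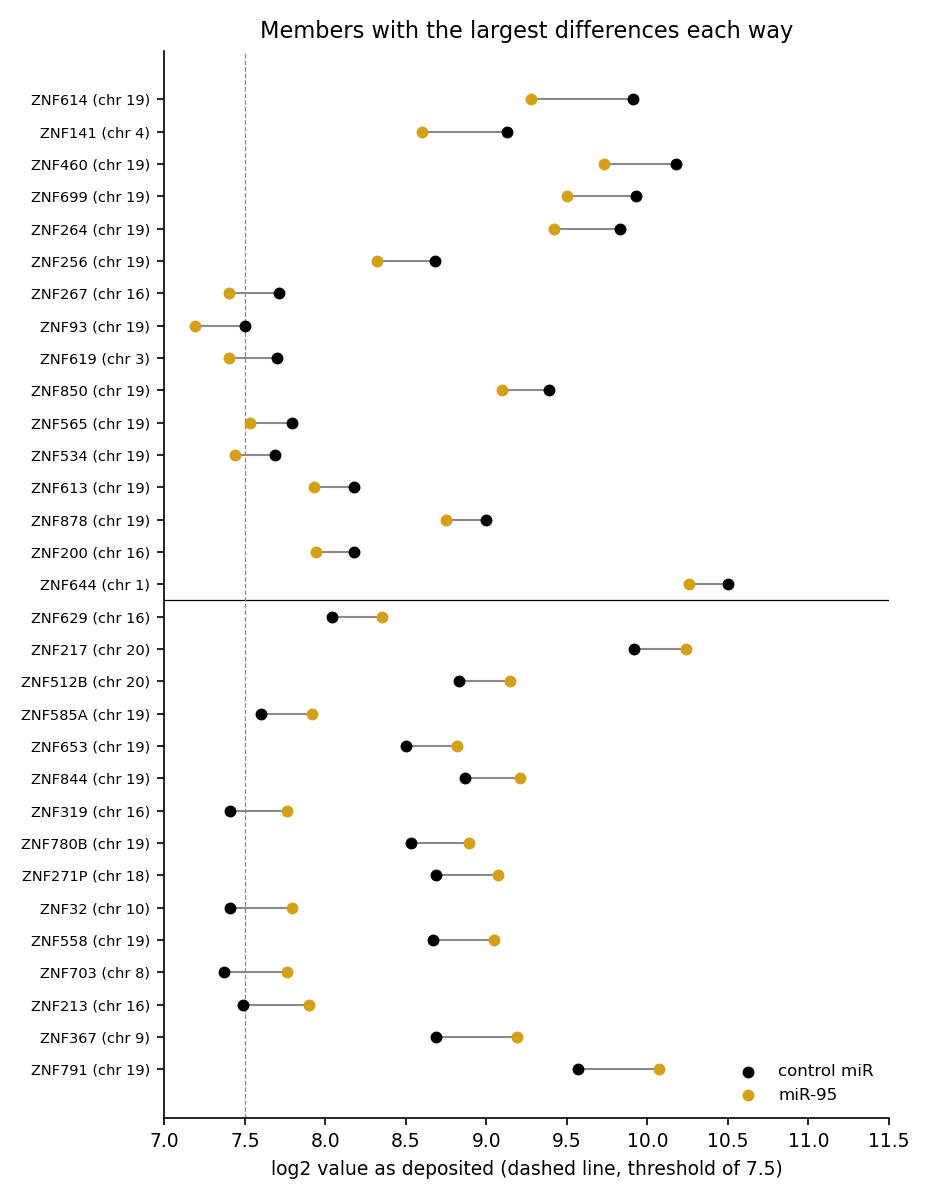
Values on the control array (black) and the miR-95 array (yellow), log2 as deposited (x axis), of the members with the 15 largest differences each way, ties included (y axis, lower genes above the line and higher genes below it). ZNF614 has the widest gap, 9.91 against 9.28, and several of the dimmer genes straddle the dashed threshold of 7.5.

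The brightest members hardly differed. ZNF121, the highest at 12.02 on the control array and 12.07 on the miR-95 array, differed by 0.015. ZNF317, a KRAB gene, read 11.41 and 11.32, ZNF358 read 11.21 and 11.34, and ZNF532, a partner of chromatin reader complexes, read 11.08 and 11.15. ZNF207, a spindle assembly protein that binds microtubules and the checkpoint protein BUB3, read 11.02 and 11.07. Of the 10 brightest, the difference furthest from 0 was that of ZNF281, a transcription factor of pluripotent and cancer cells, at 0.175 (10.61 and 10.82).

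At the threshold, the 3 members just inside were ZNF696 (7.5 and 7.48), ZNF93 and ZNF16 (7.51 and 7.44). Just outside were ZNF449 (7.44 and 7.49), ZNF772 (7.49 and 7.42) and ZNF804A (7.49 and 7.25). The 184 ZNF genes below the threshold had a median difference of -0.025, and 15.2% of them passed the smaller limit in either direction, against 6.29% of the members.

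On the comparison by chromosome, ZNF genes on chromosome 19 and ZNF genes elsewhere lay at almost the same place. The median difference was -0.015 (quartiles -0.115 and 0.055) in the 136 chromosome 19 members and -0.025 (quartiles -0.105 and 0.0625) in the 150 others, which puts chromosome 19 higher by 0.01; with values as deposited both medians were above 0 (0.02 and 0.01). The deposited values are themselves rounded to 0.01. On chromosome 19, 71 members were negative and 65 positive (52.2% negative), and elsewhere 91 were negative and 59 positive (60.7%). As deposited these shares were 44.9% and 47.3%, closer together than after centring. The shares reaching 7.5 were alike, at 60.4% of 225 ZNF genes on chromosome 19 and 61.2% of 245 elsewhere.

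Past the smaller limit, 7 chromosome 19 members were lower and 3 higher, and among the others 3 were lower and 5 higher. These are 5.15% lower and 2.21% higher on chromosome 19, and 2.0% lower and 3.33% higher elsewhere, where the background was 5.36% and 3.09%. The difference between the places was not tested. The robust SD was 0.133 on chromosome 19 and 0.119 elsewhere. When members were divided into 3 classes by mean value, 5 of the 44 chromosome 19 members in the brightest class (from 9.0) were lower past the smaller limit (ZNF614, ZNF460, ZNF699, ZNF264 and ZNF850) and 1 was higher (ZNF791). Of the 51 members elsewhere in that class 0 passed it either way. In the dimmest class 2.13% of 47 chromosome 19 members and 10.2% of 49 members elsewhere passed it either way. These were ZNF93 on chromosome 19, and ZNF267, ZNF619, ZNF32, ZNF703 and ZNF213 elsewhere. Each of them was kept through 1 array only, which fixed the direction in which it could stand out. The contrast in this class, and much of the count elsewhere, thus rests on members at the threshold. In the middle class these shares were 6.67% of 45 and 6.0% of 50. The median of the brightest class was 0.02 on chromosome 19 and -0.045 elsewhere. The cut into classes was chosen with the values known.

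Among genes other than ZNF genes the medians lay further apart. The 405 other genes of chromosome 19 at or above 7.5 had a median of 0.035 with 38.0% negative, against -0.035 and 60.7% in the 6356 elsewhere. As deposited the medians were 0.07 and 0, with 27.4% and 49.2% negative. The median was thus higher by 0.07 on chromosome 19 among other genes and by 0.01 among ZNF genes. The other genes of chromosome 19 were also shorter, with a median RefSeq span of 12.9 kb against 31.6 kb elsewhere, while the ZNF genes had similar spans in both places (22.7 kb and 23.6 kb). Within the members, differences declined with span (Spearman's rho = -0.18 across 286 genes on the same 2 arrays), as they did in the other genes (rho = -0.239 across 6761).

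Medians within 3 classes of span, cut at equal numbers of members, were as follows. Up to 17.5 kb, the medians on chromosome 19 were 0.005 for 45 ZNF genes and 0.055 for 242 other genes. Between 17.5 and 30.8 kb they were -0.04 for 54 ZNF genes and 0.055 for 78 other genes. Above 30.8 kb they were -0.035 for 37 ZNF genes and -0.015 for 85 other genes. In the same 3 classes the ZNF genes on other chromosomes had medians of -0.015, -0.02 and -0.045, and the other genes there 0.005, -0.035 and -0.075. The classes do not match spans closely, since the highest has no upper bound and other genes in it run to 1227.2 kb. The part of span, base composition and probe design in these offsets was not tested.

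**Figure D4:**
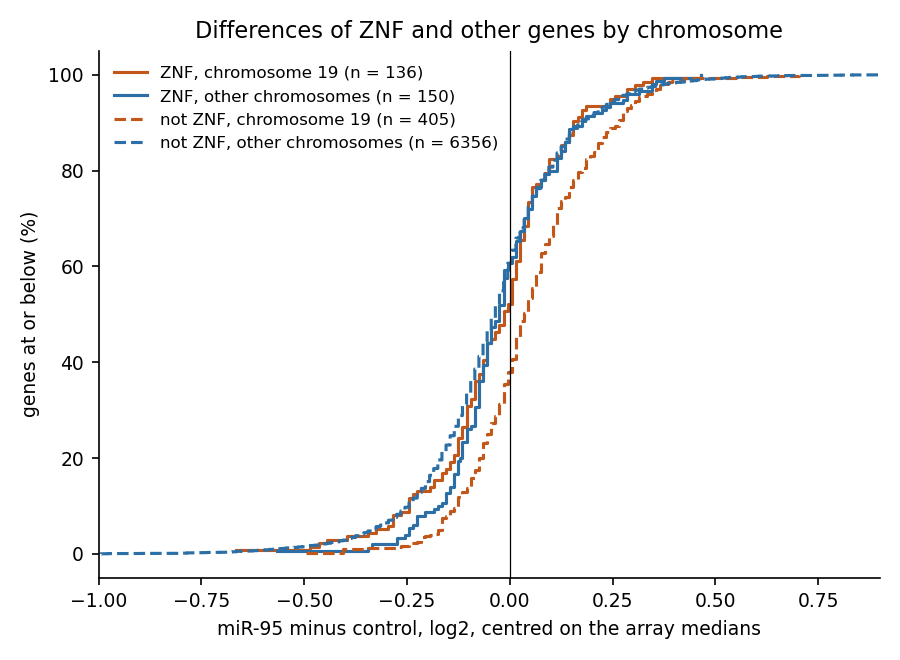
Cumulative share of genes (y axis, percent) at or below each centred log2 difference between the miR-95 and control arrays (x axis), for ZNF genes (solid) and other genes (dashed) on chromosome 19 (orange) and elsewhere (blue), all at or above 7.5. The dashed orange curve of other chromosome 19 genes, with a median of 0.035, runs to the right of the ZNF curves, whose medians are -0.015 and -0.025 (0.02 and 0.01 as deposited).

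Along chromosome 19, 118 of the 136 members fell into 8 runs of at least 5 members whose neighbouring starts lie within 500 kb of each other in RefSeq. Neighbours did not go together as a rule. Of 117 adjacent pairs 59 had the same sign (50.4%), and the correlation between neighbours' differences was -0.028 (Spearman's rho, a description over pairs on the same 2 arrays). The runs had medians between -0.135 and 0.085.

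The run from ZNF264 to ZNF446 held 30 members, of which 16 were negative and 14 positive (median -0.015, or 0.02 as deposited). Its first 3 genes in order were all lower, ZNF264 at -0.445, ZNF805 at -0.265 (8.56 and 8.33) and ZNF460 at -0.485. The fourth, ZNF543, read 9.51 and 9.59 and differed by 0.045. ZNF256, further along the run, lay between ZNF417 at -0.045 and ZNF606 at -0.105, so its -0.395 was not shared by its neighbours.

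The run from ZNF175 to ZNF331 held 28 members, 20 negative and 8 positive (17 and 10 as deposited), with a median of -0.07. It contains ZNF614, and of the members on either side ZNF615 differed by -0.135 (7.62 and 7.52) and ZNF432 by -0.055 (8.02 and 8.0). ZNF613 differed by -0.285 and ZNF350, which partners BRCA1, by 0.155 (7.82 and 8.01), so these immediate neighbours went opposite ways. ZNF808, a KRAB repressor of transposable elements needed for pancreas development, differed by -0.185 (9.79 and 9.64). ZNF766 read 10.10 and 9.89 and ZNF836 read 7.64 and 7.43, each at -0.245. ZNF836 was kept only through the control array.

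The run from ZNF101 to ZNF43 had the lowest median, -0.135, with 9 of 12 members negative (8 as deposited). The run includes ZNF93 and its neighbour ZNF253 (7.60 and 7.39), and, on the higher side, ZNF430 (7.36 and 7.64). ZNF93 and ZNF253 were kept only through the control array and ZNF430 only through the miR-95 array. The threshold thus fixed the direction of all of these. The members of the run had a median span of 34.8 kb, the longest of the chromosome 19 runs. The run from ZNF653 to ZNF791 had the highest median, 0.085, with 7 of 11 positive, yet its members reached from -0.285 (ZNF878, 9.0 and 8.75) to 0.465 (ZNF791). In the run from ZNF579 to ZNF71, 7 of 9 were positive with a narrow range, from -0.075 (ZNF444) to 0.175 (ZNF580). Its median span was 10.6 kb, the shortest of the chromosome 19 runs, while that of the run from ZNF653 to ZNF791 was 22.4 kb. The part of gene length in the run medians was not tested.

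**Figure D5:**
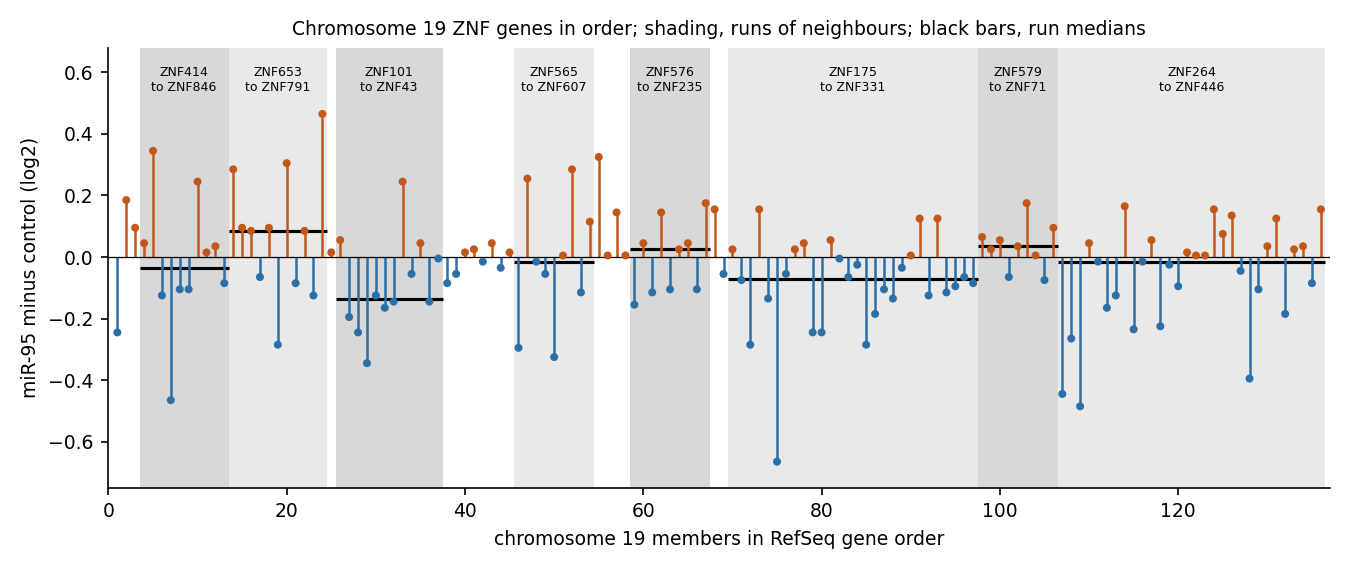
Centred log2 difference between the miR-95 and control arrays (y axis) of the 136 chromosome 19 members in RefSeq gene order (x axis, by rank and not to distance), blue below 0 and orange above. Shaded blocks are the 8 runs of neighbours, named by their first and last gene, and black bars are run medians, which lie between -0.135 and 0.085 after centring; that of the run from ZNF264 to ZNF446 turns from -0.015 to 0.02 as deposited.

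Outside chromosome 19 the members were spread thinly. Chromosome 16 held 19 members with a median of 0.065, including ZNF213, ZNF629 (8.04 and 8.35) and ZNF319 on the higher side and ZNF267 and ZNF200 (8.18 and 7.94) on the lower. Its run from ZNF768 to ZNF646 had 5 of 7 members positive. All 9 members of chromosome 3 were negative (median -0.085, from -0.335 to -0.035), among them ZNF619 and ZNF620 (8.63 and 8.42). As deposited 8 of the 9 stayed negative and 1 was at 0. On chromosome 8, 10 of 12 were negative after centring and 6 of 12 as deposited. Over all genes at or above 7.5, 59.2% were negative after centring and 47.9% as deposited. The other genes of chromosomes 3, 8 and 16 were not summarised. ZNF267 and ZNF619 were kept only through the control array, and ZNF213 and ZNF319 only through the miR-95 array. With so few members on each of these chromosomes, the counts are a description and were not tested.

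By role, the first group holds members that work as activators or chromatin cofactors. The lists that follow were drawn up with values of these data known, so their direction is not independent evidence. Of 30 such genes 23 reached 7.5, with 16 negative and 7 positive (15 and 8 as deposited), a median of -0.065 (-0.035 over all genes) and 0 past 1.5-fold; 1, ZNF703, was higher past the smaller limit (4.35%, against 8.46% of all genes either way). ZNF703 was kept only through the miR-95 array (7.37 and 7.76). ZNF143, an activator of snRNA and messenger RNA genes, differed by -0.065 (9.34 and 9.31). ZNF644, a partner of the histone methyltransferases EHMT1 and EHMT2, differed by -0.275 (10.50 and 10.26), and ZNF711, a partner of the histone demethylase PHF8, by -0.235 (8.06 and 7.86). ZNF217, an oncogenic corepressor component, read 9.92 and 10.24, and ZNF503, a developmental corepressor, read 9.29 and 9.51. ZNF410, the activator of the chromatin remodeller gene CHD4, read 9.63 and 9.56.

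Members that act on RNA, ribosomes, ubiquitin, SUMO or the spindle were all measured above 7.5 when they had a probe set, 14 of 15 listed. Of these 12 were negative and 2 positive (10 and 4 as deposited), with a median of -0.075, and 0 passed the smaller limit. Over all genes at or above 7.5 the median was -0.035, 59.2% were negative (47.9% as deposited) and 8.46% passed that limit either way. ZNF451, a SUMO ligase, had the lowest difference at -0.255 by the mean of its probe sets (9.15 and 8.93). ZNF598, the ubiquitin ligase that marks collided ribosomes, read 8.71 and 8.61. ZNF622 and ZNF593, factors of large ribosomal subunit maturation, differed by -0.015 (9.28 and 9.30) and 0.015 (9.96 and 10.01).

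Of 9 KRAB repressors known to bind transposable elements, 6 reached 7.5. ZNF91, which silences SVA elements and is the paralog of ZNF93, read 7.76 on the control array and 7.81 on the miR-95 array. ZNF649 read 7.61 and 7.57, ZNF417 read 8.13 and 8.12 and ZNF41 read 7.92 and 8.03. Of the 6, 4 were negative and 2 positive, also as deposited, with a median of -0.06 against -0.035 over all genes at or above 7.5. ZNF93 was the only 1 of the 6 past the smaller limit (16.7%, against 8.46% of all genes either way). It was kept only through the control array. The levels of ZNF765, ZNF587 and ZNF425 stayed below 7.5.

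Corepressor and other silencing genes linked to KRAB repression were taken from a list of 42 symbols, of which 31 were measured and 29 reached 7.5. Of these 21 were negative and 8 positive (18 and 11 as deposited), with a median of -0.085, against -0.035 and 59.2% negative over all genes at or above 7.5. None was past 1.5-fold, and past the smaller limit 2 were lower and 1 higher, 10.3% either way against 8.46% of all genes. TRIM28, the scaffold that binds KRAB, read 11.74 on the control array and 11.71 on the miR-95 array. SETDB1 had no probe set used here, and its partner ATF7IP read 9.11 and 9.15.

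Within that list, 3 genes passed the smaller limit. RBBP4, a histone chaperone, read 11.12 on the control array and 10.66 on the miR-95 array, and GATAD2A, a NuRD subunit, read 10.04 and 9.58, both 1.41-fold lower. CBX1 (heterochromatin protein 1 beta) read 9.68 and 10.09, 1.30-fold higher. Their relatives lay nearer 0. The NuRD subunits HDAC1, CHD4 and GATAD2B differed by -0.015, -0.005 and 0.015. Others of that complex lay further out, CHD3 at 0.095, MTA1 at -0.115, RBBP7 at -0.145 and HDAC2, below 7.5 on both arrays, at -0.155. The heterochromatin proteins CBX5 and CBX3 differed by -0.075 and -0.095. Next in size on the lower side, UHRF1, which guides maintenance methylation of DNA, read 10.82 and 10.59, and DNMT3B, a DNA methyltransferase, 7.61 and 7.41. MPHOSPH8, of the HUSH silencing complex, read 8.55 and 8.36. EHMT1 and PPHLN1 followed at -0.195 each, SUV39H2 at -0.185 and MORC3 at -0.175. On the higher side, DNMT3A read 7.86 and 8.09 and DAXX, a histone chaperone, 8.03 and 8.20.

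C2H2 genes named otherwise had a median close to that of the ZNF members. Of 166 measured genes of the ZFP, ZSCAN, ZKSCAN, ZBTB, KLF, SP, PRDM and related groups, 90 reached 7.5, with 43 negative and 47 positive (32 and 52 as deposited) and a median of 0.005. Past the smaller limit 2 were lower and 6 higher, whereas more of all genes were lower (5.36%) than higher (3.09%). This opposite lean was not tested. Either way it was 8.89% of the 90 against 8.46% of all genes, and past 1.5-fold 0 were either. The furthest from 0 was SNAI1, a repressor known for its part in epithelial-mesenchymal transition, at 0.525 (7.10 and 7.66), which reached 7.5 on the miR-95 array alone. ZBTB18, a neuronal repressor, read 7.92 and 7.56, and ZBTB39 read 9.49 and 9.17. ZSCAN5A, a chromosome 19 gene, read 8.05 and 8.46, ZSCAN29 read 8.35 and 8.73, and PRDM8, a transcriptional repressor, read 9.65 and 10.08. In the ZBTB group 18 of 28 were negative (13 as deposited), in the KLF and SP group 7 of 14 (5) and in the ZSCAN and ZKSCAN group 7 of 14 (5).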

How the data were processed

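The deposited table holds log2 values of 23641 probe sets on 2 arrays, a scale read from the values. The authors used Affymetrix Expression Console 1.2, per the submitters' processing notes. No source here names the summarisation, background correction, scaling, build or filters. Platform annotation gave 1 gene to 14088 probe sets, and several probe sets of 1 gene were averaged. Chromosome, gene order and span came from RefSeq (GRCh38.p14) through the Entrez identifier; all 470 ZNF genes matched. Each array was centred on its median over genes. Counts past 1.5-fold and past a log2 difference of 0.322, and medians, were set beside all named genes kept by the same threshold of 7.5. No test was possible with 1 array per group. The members, role lists and promoter letters were chosen with earlier results of these data known, and the NRF1 letters were shortened after a first search. Genes named were those with the 15 largest differences each way, the 10 brightest, the 5 extremes by chromosome group, those beside the threshold, those with several probe sets, members of runs and list extremes; genes named outside this rule were chosen after their values were seen, for their known roles or place. Alternatives were no centring, loess (span 0.4), quantile normalization, an offset of 16, other thresholds, the brightest probe set, genes with 1 probe set, and short genes. The steps were tested on simulated data. Python 3.11.15, pandas 2.3.3, numpy 2.4.6, scipy 1.17.1 and statsmodels 0.14.6 were used.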

Additional observations from a re-analysis of the deposited data

How the results depend on the processing

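The near-zero medians took their sign from the centring. For all members, chromosome 19 members and members elsewhere, the medians were 0.015, 0.02 and 0.01 with values as deposited, 0.0064, 0.0166 and 0.0021 after loess, and 0.01, 0.0175 and 0.0075 after quantile normalization. The negative share was 46.2%, 47.9% and 46.2% under these 3, while all genes at or above 7.5 gave 47.9%, 50.2% and 48.6%. With members of short span the median was 0.005, that of chromosome 19 members 0.005 and the negative share 49.0%; with a threshold of 9 the chromosome 19 median was 0.015. Chromosome 19 minus other chromosomes stayed between 0 and 0.05 in 13 alternatives. Without a threshold 3 genes were 1.5-fold lower. The count lower past 0.322 was 6 with values as deposited, 6 with the offset, 6 with a threshold of 9, 30 with none and 5 with short genes. The count higher past it was 5 with a threshold of 8, 4 with 9, 16 with none, 5 when both arrays had to reach 7.5 and 5 with short genes. The alternatives for these last counts were added after the data were seen. ZNF224 was 0.35 by its brightest probe set. Current RefSeq symbols equalled the platform's, so that alternative changed nothing. The planned splits by KRAB box and finger number, and the alternative on finger number, were not run because protein sequences were not used here. No paired analysis was possible because each group has 1 array. The cause of these shifts was not tested, except that leaving genes out or in changes counts by construction. Signal over background is not in the deposited table, so what dimness limits is unknown beyond the threshold.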
